A study of Rattus norvegicus with 9 samples.

Results

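The branched-chain amino acid degradation genes described here are the genes whose deposited KEGG annotation carries the term for valine, leucine and isoleucine degradation. The term stood on 54 of 18629 genes, and 5 of them (Hadha, Hadhb, Acadm, Acaa2 and Hmgcs1), known mainly from fatty acid oxidation or sterol synthesis, were set aside, which left 49 members. Messenger RNA was measured in primary cardiomyocytes from Sprague-Dawley rats 1 to 2 days old, in 3 groups of 3 libraries. The Yap1 WT group had received an adenovirus carrying Yap1 (labelled as overexpression), the Yap1 shRNA group an adenovirus carrying a Yap1 short hairpin (labelled as knock down), and the GFP group an adenovirus carrying green fluorescent protein (labelled as wild type). All 9 cultures were held for 14 h at 1 g/L glucose and 1% serum, then for 48 h at 33 mM glucose plus 100 nM insulin, so no group here lacked the high-glucose and insulin treatment. The labels describe no control hairpin, do not give the promoter of either virus, and do not say whether the 3 libraries of a group came from separate isolations. P-values therefore measure the spread between these libraries, which may be technical.

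The branched-chain amino acids leucine, valine and isoleucine are broken down mainly in mitochondria. A transaminase first moves the amino group to a keto acid acceptor, a step that can be reversed, and the branched-chain keto acid dehydrogenase complex then removes a carboxyl group irreversibly and commits the carbon to breakdown. Separate enzyme series carry the leucine skeleton to acetyl-CoA and acetoacetate, the valine skeleton to propionyl-CoA and the isoleucine skeleton to both acetyl-CoA and propionyl-CoA, and the last of these products enters the citric acid cycle as succinyl-CoA. In heart muscle the pathway is known for its control by phosphorylation of the dehydrogenase complex and for reduced expression of its genes in the failing heart.

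Promoter windows are shown for both branched-chain transaminases, whose messages moved in opposite directions, and for Bckdhb, the subunit of the dehydrogenase complex with the largest fall. They come from the RefSeq table of build GRCr8, run 5′ to 3′ on the gene's strand and cover 250 bases before to 50 bases after the annotated start. Bcat1 has 2 annotated starts on the minus strand of chromosome 4, at chr4:179777239-179777538 and chr4:179744159-179744458. Bcat2 is on the plus strand at chr1:105178889-105179188 and Bckdhb on the plus strand at chr8:93725027-93725326. Capitals mark a match to a searched motif, and windows without capitals hold none.
Bcat1 upstream start: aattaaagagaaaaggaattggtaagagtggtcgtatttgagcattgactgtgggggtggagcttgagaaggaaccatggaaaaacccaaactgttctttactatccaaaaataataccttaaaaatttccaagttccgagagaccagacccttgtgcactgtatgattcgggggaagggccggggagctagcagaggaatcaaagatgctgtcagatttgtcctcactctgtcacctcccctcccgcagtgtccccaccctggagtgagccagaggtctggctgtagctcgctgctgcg
Bcat1 downstream start: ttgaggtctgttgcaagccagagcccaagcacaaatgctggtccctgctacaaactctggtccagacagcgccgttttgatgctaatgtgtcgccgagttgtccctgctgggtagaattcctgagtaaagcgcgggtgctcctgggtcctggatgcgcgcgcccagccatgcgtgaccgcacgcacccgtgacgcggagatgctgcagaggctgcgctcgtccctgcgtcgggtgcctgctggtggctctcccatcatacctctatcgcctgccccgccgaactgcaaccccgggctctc
Bcat2: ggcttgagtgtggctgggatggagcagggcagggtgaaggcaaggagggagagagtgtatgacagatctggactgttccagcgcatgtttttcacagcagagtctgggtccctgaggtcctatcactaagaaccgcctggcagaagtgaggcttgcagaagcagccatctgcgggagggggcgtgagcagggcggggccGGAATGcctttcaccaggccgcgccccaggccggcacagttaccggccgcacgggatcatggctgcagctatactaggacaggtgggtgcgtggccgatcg
Bckdhb: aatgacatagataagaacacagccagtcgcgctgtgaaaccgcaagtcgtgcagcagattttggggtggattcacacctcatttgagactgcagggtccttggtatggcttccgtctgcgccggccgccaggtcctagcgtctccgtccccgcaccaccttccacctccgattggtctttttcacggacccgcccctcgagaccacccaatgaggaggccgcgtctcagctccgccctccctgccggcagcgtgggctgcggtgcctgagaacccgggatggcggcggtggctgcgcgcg
The capitals in the Bcat2 window are GGAATG, the core recognised by TEAD factors, the DNA-binding partners of YAP, and this match begins 51 bases before the start. In all, 5 motifs were searched on both strands in the 46 windows of the 41 members with an entry, and in all 33469 windows of the table. GGAATG stood in 3 member windows (Bcat2, Oxct1 and Pccb), or 6.52%, and in 14.2% of all windows. The letters AAGGTCA, recognised by estrogen-related receptors, stood in the window of Mcee alone among members (2.17% of member windows and 4.61% of all). GCGCATGC, recognised by NRF1, stood in that of Pccb alone (2.17% and 2.47%), away from its GGAATG match. TGATGNAA, recognised by ATF4, stood in 2 member windows, those of Echs1 and RGD1308564 (4.35% and 3.98%), and CACGTG, recognised by MYC, stood in that of Aox4 alone (2.17% and 6.42%). Members without an entry included Bckdha, Mccc2, LOC100911186, Acsf3, Abat and Aldh2. Median GC was 59.5% in member windows and 51.7% in all windows, and the shares above are not adjusted for it. These counts describe letters in short windows, and no binding was measured.

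Levels are in CPM, read counts relative to the TMM-scaled library total, and levels of different genes are compared only in TPM, which also correct for transcript length. Assigned reads averaged 11171601 in Yap1 WT, 6272010 in Yap1 shRNA and 15184219 in GFP libraries, so the Yap1 shRNA libraries held 0.413 of the GFP depth. Yap1 itself was at 559, 812 and 622 CPM in Yap1 WT and 95.4, 96.0 and 95.3 CPM in Yap1 shRNA libraries, against 197, 198 and 190 CPM in GFP libraries, as the labels state. The 10 cardiomyocyte markers were present in every library, yet their summed level ran from 6471 to 9667 CPM in Yap1 WT and from 2057 to 2305 CPM in Yap1 shRNA libraries, against 31468 to 32343 CPM in GFP libraries. All 10 fell in both Yap1 groups, with medians of -1.79 and -3.23 on the log2 scale. In bulk RNA, fewer cells of a type and less RNA per cell cannot be told apart. The part of the cardiomyocyte markers in the results that follow was not tested.

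Of the 49 members, 39 had enough reads to be tested. In Yap1 WT against GFP, 2 tested members rose (Bcat1 and Oxct2a), 32 fell and 5 were not called, with a median log2 fold change of -0.76. Over all 13708 genes tested 63.8% were called, 32.0% higher and 31.8% lower, with a median of 0.00. In Yap1 shRNA against GFP, 3 members rose (Bcat1, Oxct2a and Aldh3a2), 34 fell and 2 were not called, with a median of -1.44, where 78.3% of all genes were called, 39.2% higher and 39.1% lower, with a median of -0.01. In Yap1 WT against Yap1 shRNA, 26 members were higher, 5 were lower (Bcat1, Oxct2a, Auh, Aacs and Aldh3a2) and 8 were not called, with a median of 0.53, where 62.5% of all genes were called, 31.2% higher and 31.3% lower, with a median of 0.04. Calls are at a Benjamini-Hochberg adjusted p below 0.05 over all genes in edgeR's quasi-likelihood test. Both comparisons with GFP share the same 3 GFP libraries. With library size alone as the scaling, 62.8% of all calls in Yap1 WT against GFP were higher, and 65.2% were on the TPM scale, against 50.2% with TMM.

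**Figure D1:**
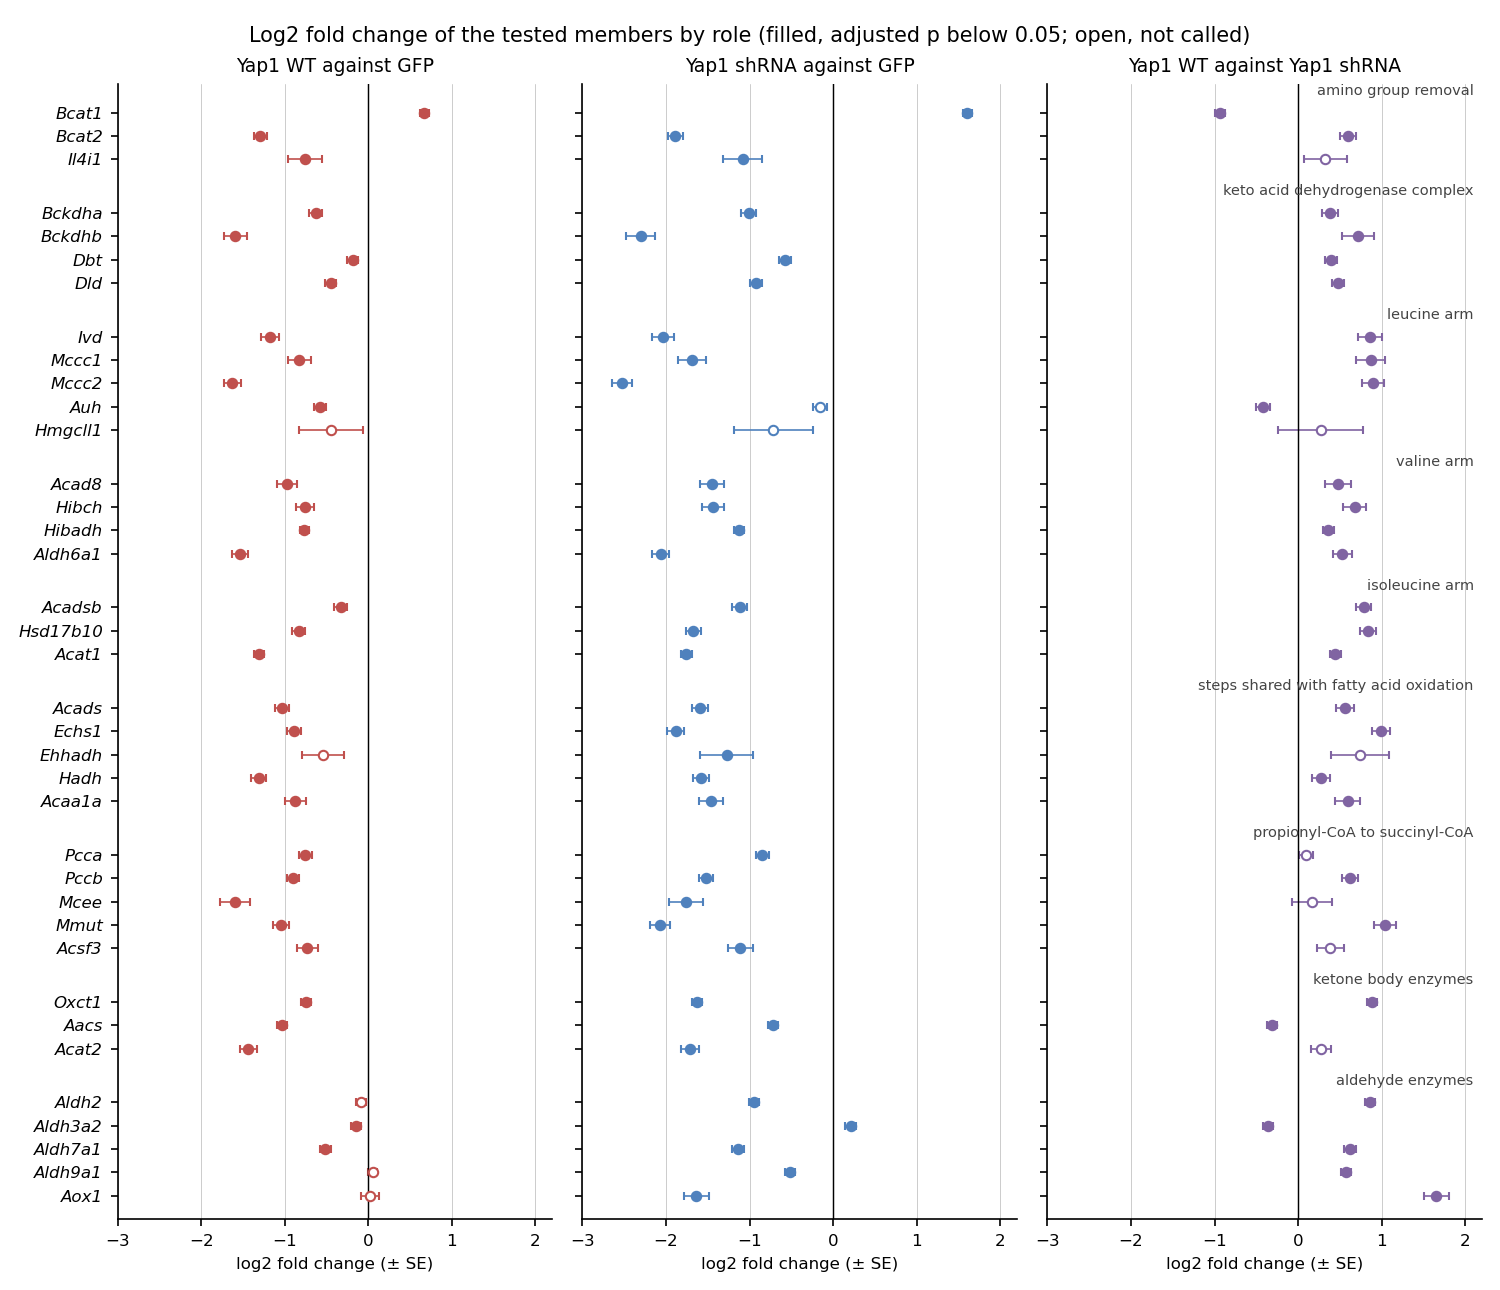
Log2 fold change of 37 tested members (horizontal axis, point and bar for the fitted value ± SE) by gene and role (vertical axis) in the 3 comparisons, with filled points called at an adjusted p below 0.05 and open points not called. Oxct2a is left off because GFP libraries held 3 reads of it, and most points lie left of 0 in both comparisons with GFP and right of 0 in Yap1 WT against Yap1 shRNA, while Bcat1 lies on the opposite side in each.

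The first step is catalysed by a pair of branched-chain aminotransferases, cytosolic Bcat1 and mitochondrial Bcat2. Bcat1 had 359, 390 and 363 CPM in Yap1 WT and 671, 736 and 720 CPM in Yap1 shRNA libraries, against 230, 234 and 237 CPM in GFP libraries. It rose in both Yap1 groups and was highest in every Yap1 shRNA library, with no overlap between any 2 groups. Bcat2 had 24.5, 20.4 and 21.8 CPM in Yap1 WT and 15.5, 14.0 and 14.6 CPM in Yap1 shRNA libraries, against 51.8, 55.2 and 56.6 CPM in GFP libraries. It fell in both, again with no overlap and with the lowest levels in Yap1 shRNA. The log2 fold change of Bcat1 was 0.67 ± 0.05 in Yap1 WT against GFP (SE, edgeR adjusted p = 3.14e-07) and 1.60 ± 0.06 in Yap1 shRNA against GFP (edgeR adjusted p = 4.97e-11). That of Bcat2 was -1.29 ± 0.08 (edgeR adjusted p = 1.44e-08) and -1.89 ± 0.09 (edgeR adjusted p = 5.14e-10) in the same comparisons. Between the Yap1 groups, Bcat1 was 1.91-fold lower and Bcat2 1.51-fold higher in Yap1 WT than in Yap1 shRNA.

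The TPM ratio of Bcat1 to Bcat2 was 8.34, 10.7 and 9.66 in Yap1 WT and 25.3, 29.5 and 27.8 in Yap1 shRNA libraries, against 2.51, 2.38 and 2.35 in GFP libraries. The cytosolic enzyme was the more abundant message in all 9 libraries, and the groups did not overlap. The means were 9.58 ± 1.20 in Yap1 WT, 27.5 ± 2.15 in Yap1 shRNA and 2.42 ± 0.08 in GFP (SD, n = 3 each). For each pair of groups the exact permutation p (two-sided, as throughout) was 0.1, the smallest that 3 against 3 libraries allow. Il4i1, a secreted amino acid oxidase known mainly from immune cells, stayed low. It had 1.78 ± 0.13 CPM in Yap1 WT and 1.41 ± 0.22 CPM in Yap1 shRNA. In GFP it had 3.01 ± 0.25 CPM (SD, n = 3 each). It fell in both comparisons with GFP in the edgeR fit. The authors' DESeq2 q-value of Il4i1 in Yap1 WT against GFP was 0.0736, which would not be called.

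**Figure D2:**
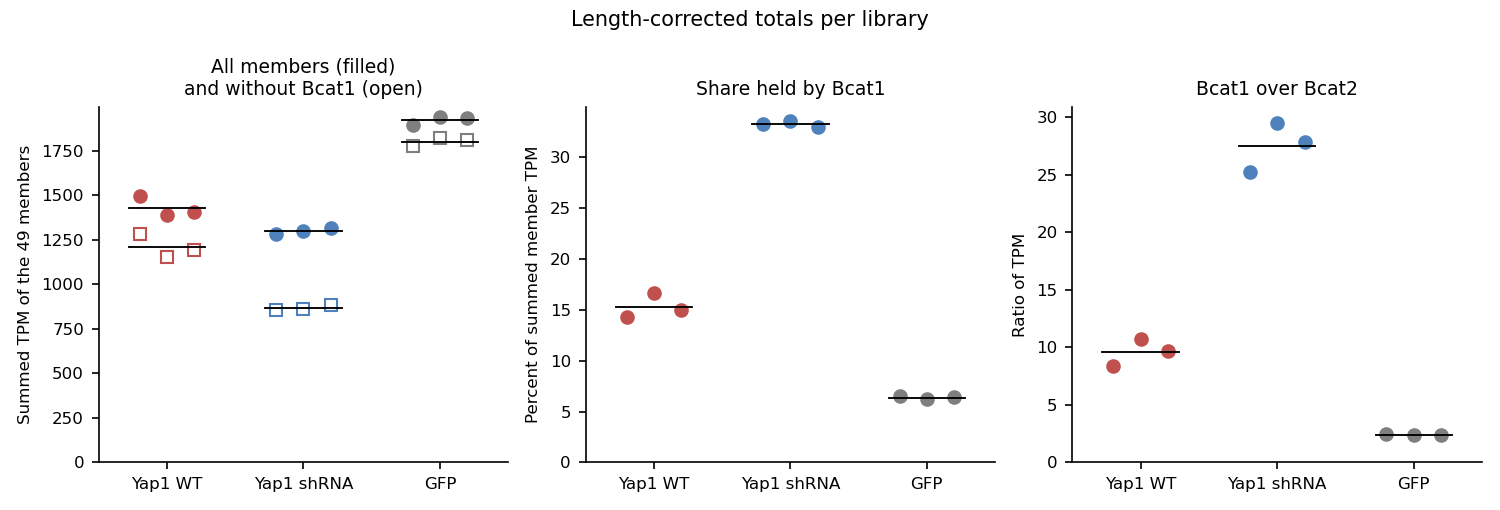
Length-corrected totals per library for Yap1 WT, Yap1 shRNA and GFP, with points for libraries and bars for group means: the summed TPM of the members with and without Bcat1 (left), the percent of that sum held by Bcat1 (middle) and the TPM ratio of Bcat1 to Bcat2 (right). The Yap1 shRNA libraries have the lowest sums and the highest Bcat1 share, near 33.3%, and the GFP libraries the highest sums and the lowest share, near 6.37%.

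Over all 49 members the summed TPM was 1430 ± 58.3 in Yap1 WT and 1301 ± 16.2 in Yap1 shRNA, against 1925 ± 23.2 in GFP (SD, n = 3 each). Bcat1 alone held 15.3% ± 1.19 of the sum in Yap1 WT and 33.3% ± 0.31 in Yap1 shRNA, against 6.37% ± 0.15 in GFP. Without Bcat1 the sum was 1212 ± 64.6 TPM in Yap1 WT and 868 ± 13.1 TPM in Yap1 shRNA, against 1802 ± 24.3 TPM in GFP. Bcat1 was thus the most abundant member in both Yap1 groups, where Aldh2 came next at 171 ± 2.45 TPM in Yap1 WT and 97.9 ± 6.32 TPM in Yap1 shRNA. In GFP the order was led by Hsd17b10 (172 ± 13.0 TPM) and Aldh2 (162 ± 3.46 TPM), whose means ± SD overlapped, followed by Bcat1 (123 ± 1.91 TPM) and Oxct1 (119 ± 3.00 TPM), whose means ± SD overlapped too.

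The branched-chain keto acid dehydrogenase complex is built from the decarboxylase subunits Bckdha and Bckdhb, the transacylase core Dbt and the dihydrolipoamide dehydrogenase Dld, which other keto acid dehydrogenases also use. All 4 messages fell in both Yap1 groups and all 4 were higher in Yap1 WT than in Yap1 shRNA, but the sizes differed widely between subunits. Bckdhb had 11.3, 8.89 and 11.4 CPM in Yap1 WT and 4.16, 7.09 and 8.05 CPM in Yap1 shRNA libraries, against 29.3, 34.4 and 31.5 CPM in GFP libraries. Bckdha had 26.8, 26.2 and 25.4 CPM in Yap1 WT and 21.4, 18.7 and 20.0 CPM in Yap1 shRNA libraries, against 38.0, 44.9 and 38.5 CPM in GFP libraries. No library of a Yap1 group reached the lowest GFP library for either subunit of the decarboxylase. Dbt had 45.8, 44.5 and 45.1 CPM in Yap1 WT and 32.4, 34.6 and 36.4 CPM in Yap1 shRNA libraries, against 54.7, 49.5 and 49.9 CPM in GFP libraries. Dld had 141, 136 and 139 CPM in Yap1 WT and 89.2, 96.3 and 113 CPM in Yap1 shRNA libraries, against 189, 192 and 187 CPM in GFP libraries. For these subunits too the groups did not overlap, with the Dbt levels of Yap1 WT lying close below those of GFP.

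The log2 fold change of Bckdhb was -1.59 ± 0.14 in Yap1 WT against GFP (edgeR adjusted p = 5.87e-07) and -2.30 ± 0.17 in Yap1 shRNA against GFP (edgeR adjusted p = 3.94e-08). For Bckdha it was -0.63 ± 0.08 in Yap1 WT and -1.01 ± 0.09 in Yap1 shRNA, for Dld -0.45 ± 0.07 in Yap1 WT and -0.93 ± 0.07 in Yap1 shRNA, and for Dbt -0.19 ± 0.06 in Yap1 WT and -0.58 ± 0.07 in Yap1 shRNA, all called. The Dbt call in Yap1 WT against GFP (edgeR adjusted p = 0.02) was lost on leaving out GFP replicate 1 (-0.14), Yap1 WT replicate 2 (-0.18) or Yap1 WT replicate 3 (-0.19), and in DESeq2, with library size alone and on the TPM scale. The TPM ratio of Bckdhb to Bckdha, whose products pair in the decarboxylase, was 0.457 ± 0.065 in Yap1 WT and 0.369 ± 0.129 in Yap1 shRNA, against 0.889 ± 0.033 in GFP (SD, n = 3 each). Both Yap1 groups lay wholly below GFP (exact permutation p = 0.1 each, the smallest possible) and overlapped each other (p = 0.5). One Yap1 shRNA library, replicate 1, had a ratio of 0.220, against 0.429 and 0.457 in the others of its group.

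A kinase and a phosphatase set the activity of the complex by phosphorylation, Bckdk inhibiting it and the mitochondrial Ppm1k reactivating it. Bckdk had 71.7, 65.8 and 67.6 CPM in Yap1 WT and 39.2, 45.7 and 40.1 CPM in Yap1 shRNA libraries, against 107, 115 and 110 CPM in GFP libraries. Ppm1k had 25.8, 19.7 and 21.3 CPM in Yap1 WT and 13.6, 14.0 and 16.4 CPM in Yap1 shRNA libraries, against 34.0, 34.6 and 31.5 CPM in GFP libraries. Both fell in both Yap1 groups, the inhibitor and the activator alike, and were lowest in Yap1 shRNA. The log2 fold changes of Bckdk were -0.70 ± 0.06 in Yap1 WT and -1.41 ± 0.07 in Yap1 shRNA, and those of Ppm1k -0.58 ± 0.10 in Yap1 WT and -1.18 ± 0.11 in Yap1 shRNA, each against GFP. Their TPM ratio, Bckdk over Ppm1k, was 7.44 ± 0.83 in Yap1 WT and 6.43 ± 0.76 in Yap1 shRNA, against 8.66 ± 0.59 in GFP (SD, n = 3 each). It overlapped GFP in Yap1 WT (exact permutation p = 0.2) and lay below every GFP library in Yap1 shRNA (p = 0.1, the smallest possible).

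Slc25a44, the mitochondrial carrier of branched-chain amino acids, had 44.9, 51.1 and 46.5 CPM in Yap1 WT and 91.1, 83.3 and 89.5 CPM in Yap1 shRNA libraries, against 25.9, 26.9 and 27.5 CPM in GFP libraries. It rose in both groups, by 0.83 ± 0.07 in Yap1 WT and 1.72 ± 0.07 in Yap1 shRNA on the log2 scale (edgeR adjusted p = 3.27e-07 and 1.38e-10), and stood highest in Yap1 shRNA, like Bcat1. Klf15, a transcription factor known in mouse heart to raise branched-chain catabolic genes, had 11.1, 9.92 and 10.8 CPM in Yap1 WT and 6.87, 6.41 and 4.51 CPM in Yap1 shRNA libraries, against 14.9, 16.2 and 14.0 CPM in GFP libraries. It fell by 0.50 ± 0.12 in Yap1 WT and by 1.34 ± 0.15 in Yap1 shRNA on the log2 scale (edgeR adjusted p = 0.00272 and 1.87e-06).

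**Figure D3:**
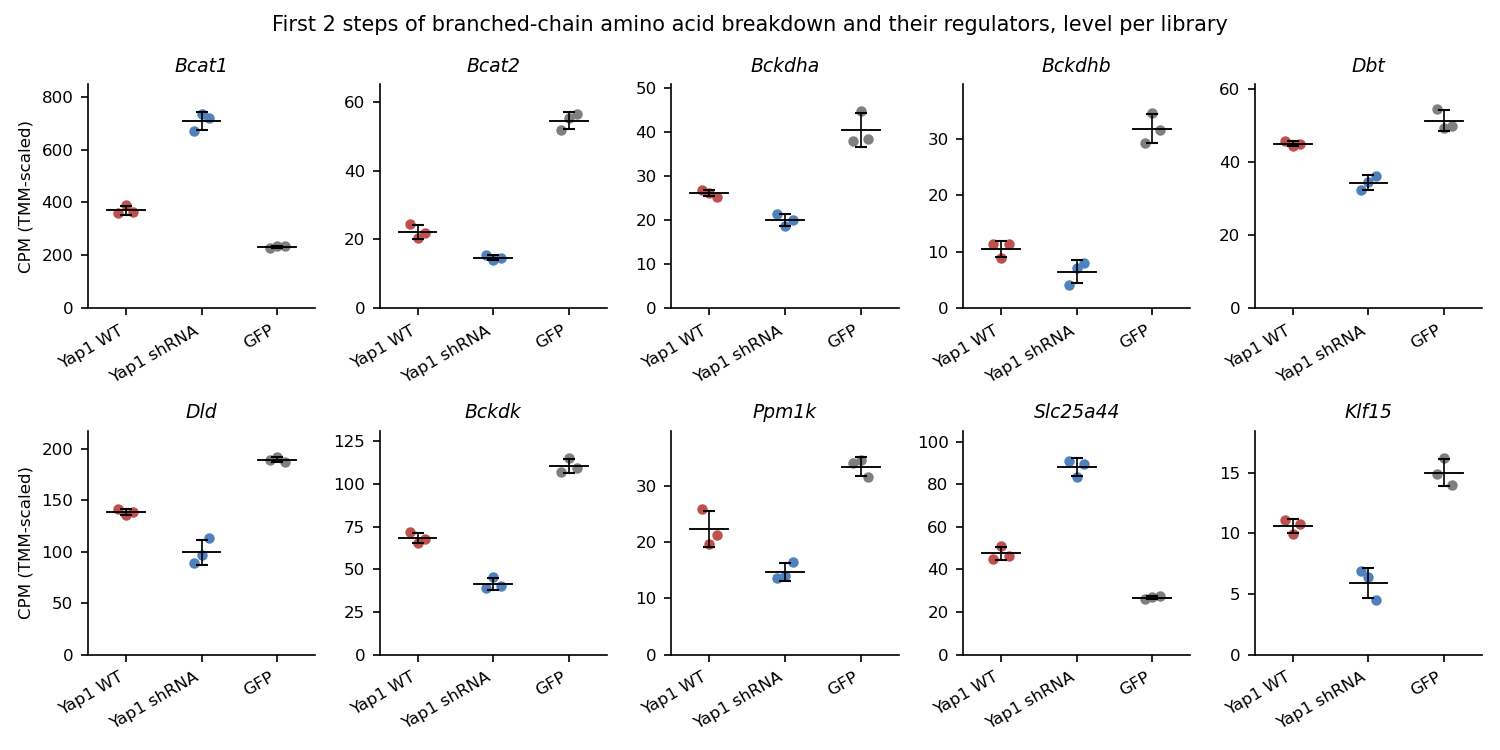
Level per library (vertical axes, CPM after TMM scaling) of the first-step transaminases, the keto acid dehydrogenase subunits, the kinase Bckdk, the phosphatase Ppm1k, the carrier Slc25a44 and the transcription factor Klf15 in Yap1 WT, Yap1 shRNA and GFP libraries, with bars for mean ± SD (n = 3 each). Bcat1 and Slc25a44 are highest in Yap1 shRNA and lowest in GFP, and the other 8 are highest in GFP and lowest in Yap1 shRNA.

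At the plasma membrane, the leucine transporter Slc7a5 and its partner chain Slc3a2 also rose. Slc7a5 was at 383 ± 8.27 CPM in Yap1 WT and 552 ± 25.7 CPM in Yap1 shRNA, against 301 ± 11.1 CPM in GFP. Slc3a2 was at 547 ± 46.8 CPM in Yap1 WT and 841 ± 2.49 CPM in Yap1 shRNA, against 338 ± 10.9 CPM in GFP (SD, n = 3 each). Slc43a2, a sodium-independent carrier of neutral amino acids, rose by 1.35 ± 0.13 in Yap1 WT and by 1.54 ± 0.14 in Yap1 shRNA on the log2 scale. Slc7a8, a related exchanger, fell in both (-0.40 ± 0.14 in Yap1 WT and -0.80 ± 0.16 in Yap1 shRNA), Slc43a1 fell in Yap1 shRNA (-0.93 ± 0.18) and had a value of -0.31 ± 0.15 in Yap1 WT that was not called, and Slc6a15 was not called in either. Of these 10 regulators and carriers, 4 rose and 4 fell in Yap1 WT against GFP, and 4 rose and 5 fell in Yap1 shRNA against GFP.

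The leucine series begins with isovaleryl-CoA dehydrogenase (Ivd) and continues with the biotin-dependent methylcrotonyl-CoA carboxylase (Mccc1 and Mccc2) and methylglutaconyl-CoA hydratase (Auh). In Yap1 WT against GFP 5 of its 6 members fell, and in Yap1 shRNA against GFP 4 fell. Mccc2 had 30.6, 23.4 and 21.7 CPM in Yap1 WT and 13.9, 13.8 and 12.9 CPM in Yap1 shRNA libraries, against 76.5, 82.3 and 75.4 CPM in GFP libraries. Its log2 fold changes of -1.63 ± 0.10 in Yap1 WT and -2.53 ± 0.12 in Yap1 shRNA (edgeR adjusted p = 2.24e-08 and 5.94e-10) were the lowest of any tested member in each comparison. The partner subunit Mccc1 fell less, by 0.83 ± 0.14 in Yap1 WT and 1.69 ± 0.17 in Yap1 shRNA, and Ivd fell by 1.17 ± 0.11 in Yap1 WT and 2.03 ± 0.13 in Yap1 shRNA. The TPM ratio of Mccc2 to Mccc1 was 2.94 ± 0.67 in Yap1 WT and 3.04 ± 1.07 in Yap1 shRNA, against 5.08 ± 0.39 in GFP (SD, n = 3 each; exact permutation p = 0.1 for either Yap1 group against GFP, the smallest possible).

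Auh followed another order. It had 15.1, 16.0 and 16.2 CPM in Yap1 WT and 20.0, 21.4 and 21.9 CPM in Yap1 shRNA libraries, against 22.5, 24.0 and 23.9 CPM in GFP libraries. Its lowest levels were in Yap1 WT, where it fell by 0.58 ± 0.08 on the log2 scale, and it was lower in Yap1 WT than in Yap1 shRNA (-0.42 ± 0.08, edgeR adjusted p = 0.000746). In Yap1 shRNA against GFP its value of -0.16 ± 0.08 was not called, was called with no count filter (-0.24) and without Yap1 WT replicate 1 (-0.19), and was 0.05 on the TPM scale. The low Hmgcll1 was not called in any comparison with all libraries, at 0.98 ± 0.42 CPM in Yap1 WT and 0.81 ± 0.57 CPM in Yap1 shRNA, against 1.34 ± 0.23 CPM in GFP. Its log2 value in Yap1 shRNA against GFP was -0.72 with all libraries and -1.43, called, without Yap1 shRNA replicate 1.

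All 4 valine enzymes fell in both Yap1 groups and were higher in Yap1 WT than in Yap1 shRNA. Aldh6a1, the methylmalonate-semialdehyde dehydrogenase that ends the valine series, had 36.7, 28.6 and 29.6 CPM in Yap1 WT and 19.2, 25.3 and 21.4 CPM in Yap1 shRNA libraries, against 89.5, 93.4 and 92.4 CPM in GFP libraries. It was 2.90-fold lower in Yap1 WT and 4.18-fold lower in Yap1 shRNA than in GFP in the fit (log2 -1.54 ± 0.09 in Yap1 WT and -2.06 ± 0.11 in Yap1 shRNA). Isobutyryl-CoA dehydrogenase Acad8 fell by 0.97 ± 0.12 in Yap1 WT and 1.45 ± 0.14 in Yap1 shRNA, the hydrolase Hibch by 0.76 ± 0.11 in Yap1 WT and 1.44 ± 0.13 in Yap1 shRNA, and the dehydrogenase Hibadh by 0.76 ± 0.06 in Yap1 WT and 1.13 ± 0.06 in Yap1 shRNA.

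The 3 isoleucine enzymes fell likewise. Acadsb, the short branched-chain acyl-CoA dehydrogenase, fell by 0.33 ± 0.07 in Yap1 WT and by 1.12 ± 0.09 in Yap1 shRNA, Hsd17b10 by 0.83 ± 0.08 in Yap1 WT and 1.68 ± 0.09 in Yap1 shRNA, and the mitochondrial thiolase Acat1 by 1.31 ± 0.06 in Yap1 WT and 1.76 ± 0.07 in Yap1 shRNA. Acat1 was at 62.9 ± 4.72 CPM in Yap1 WT and 46.2 ± 1.25 CPM in Yap1 shRNA, against 156 ± 5.87 CPM in GFP (SD, n = 3 each).

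Of the members shared with fatty acid oxidation, 4 of 5 tested fell in Yap1 WT and 5 of 5 in Yap1 shRNA against GFP. Echs1, the short-chain enoyl-CoA hydratase, had 40.9, 36.2 and 37.5 CPM in Yap1 WT and 18.7, 21.4 and 17.4 CPM in Yap1 shRNA libraries, against 72.1, 76.9 and 62.7 CPM in GFP libraries. LOC100911186, which the deposited table annotates as an enoyl-CoA hydratase, held 36.1 and 218 reads in GFP replicates 2 and 3 and 0 in the other 7 libraries. In those 2 GFP libraries the Echs1 counts were fractional (1136.9 and 922.92 reads), while in the other 7 they were whole numbers. If the 2 entries share sequence, the authors' counting could split reads between them, so the level of each alone is uncertain. Summed, they came to 38.2 ± 2.43 CPM in Yap1 WT and 19.2 ± 2.06 CPM in Yap1 shRNA, against 76.3 ± 3.79 CPM in GFP (SD, n = 3 each). The summed means were 2.00-fold lower in Yap1 WT and 3.98-fold lower in Yap1 shRNA than in GFP. Echs1 alone had log2 fold changes of -0.89 ± 0.09 in Yap1 WT and -1.88 ± 0.10 in Yap1 shRNA (1.85-fold and 3.68-fold lower in the fit). The dehydrogenase Acads fell by 1.03 ± 0.09 in Yap1 WT and 1.59 ± 0.10 in Yap1 shRNA, and Hadh by 1.31 ± 0.09 in Yap1 WT and 1.58 ± 0.10 in Yap1 shRNA. The peroxisomal thiolase Acaa1a fell by 0.87 ± 0.12 in Yap1 WT and 1.46 ± 0.14 in Yap1 shRNA, and the peroxisomal Ehhadh, at 2.26 ± 0.28 CPM in GFP, fell in Yap1 shRNA (-1.28 ± 0.32) and was not called in Yap1 WT (-0.54 ± 0.25), where it was called without Yap1 WT replicate 3 (-0.79).

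Propionyl-CoA from valine and isoleucine is carried to succinyl-CoA by propionyl-CoA carboxylase (Pcca and Pccb), the epimerase Mcee and the cobalamin-dependent mutase Mmut, and Acsf3 activates malonate and methylmalonate in mitochondria. All 5 fell in both Yap1 groups. Mmut had 18.3, 14.5 and 14.0 CPM in Yap1 WT and 7.35, 8.10 and 7.41 CPM in Yap1 shRNA libraries, against 31.0, 32.8 and 32.7 CPM in GFP libraries. Mcee had 4.47, 2.99 and 3.16 CPM in Yap1 WT and 2.40, 3.88 and 3.22 CPM in Yap1 shRNA libraries, against 9.44, 10.8 and 11.9 CPM in GFP libraries. The mutase separated all 3 groups, whereas the epimerase overlapped between the Yap1 groups. The log2 fold changes of Mmut were -1.04 ± 0.10 in Yap1 WT and -2.08 ± 0.12 in Yap1 shRNA (edgeR adjusted p = 9.03e-07 and 3.30e-09), and those of Mcee -1.59 ± 0.18 in Yap1 WT and -1.76 ± 0.21 in Yap1 shRNA (edgeR adjusted p = 5.96e-06 and 4.23e-06). Pccb fell by 0.90 ± 0.08 in Yap1 WT and 1.52 ± 0.09 in Yap1 shRNA, Pcca by 0.75 ± 0.07 in Yap1 WT and 0.85 ± 0.08 in Yap1 shRNA, and Acsf3 by 0.73 ± 0.13 in Yap1 WT and 1.11 ± 0.15 in Yap1 shRNA. The TPM ratio of Pccb to Pcca was 2.34 ± 0.26 in Yap1 WT and 1.63 ± 0.12 in Yap1 shRNA, against 2.59 ± 0.07 in GFP (SD, n = 3 each; exact permutation p = 0.3 for Yap1 WT against GFP and 0.1 for Yap1 shRNA against GFP, the smallest possible).

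Among the ketone body enzymes, Oxct1, which activates acetoacetate for use in heart mitochondria, was at 178 ± 15.0 CPM in Yap1 WT and 96.6 ± 2.62 CPM in Yap1 shRNA, against 299 ± 3.03 CPM in GFP (SD, n = 3 each). It fell in both comparisons with GFP (log2 -0.75 ± 0.06 in Yap1 WT and -1.63 ± 0.06 in Yap1 shRNA). Acat2, a cytosolic thiolase of the sterol route, fell by 1.44 ± 0.10 in Yap1 WT and 1.71 ± 0.11 in Yap1 shRNA. Aacs, the cytosolic acetoacetyl-CoA synthetase that directs acetoacetate to lipid synthesis, had 42.8, 38.0 and 39.7 CPM in Yap1 WT and 48.9, 49.1 and 51.5 CPM in Yap1 shRNA libraries, against 83.0, 83.4 and 80.5 CPM in GFP libraries. Like Auh, it was lowest in Yap1 WT (-0.31 ± 0.07 against Yap1 shRNA, edgeR adjusted p = 0.00105). Oxct2a, the testis relative of Oxct1, held 14 reads in Yap1 WT and 42 in Yap1 shRNA, against 3 in GFP, over 3 libraries each. Relative to the TMM-scaled library totals, this was 5.77 times the GFP level in Yap1 WT (95% exact counting interval 1.61 to 31.3) and 33.4 times in Yap1 shRNA (10.7 to 168), and these intervals cover counting error only. Its fitted log2 value in Yap1 WT against GFP was 2.35, and the call was lost without Yap1 WT replicate 1 (1.94) and on the TPM scale (0.28). Without GFP replicate 1 the fitted values were 3.15 in Yap1 WT and 5.64 in Yap1 shRNA, against 2.35 and 4.85 with all libraries.

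The aldehyde-oxidising members, which also serve many other substrates, had a median log2 fold change of -0.09 in Yap1 WT against GFP, where 2 of 5 tested fell and 3 were not called. In Yap1 shRNA against GFP 4 fell and 1 rose. Aldh2, the mitochondrial aldehyde dehydrogenase, was at 216 ± 1.28 CPM in Yap1 WT and 119 ± 10.9 CPM in Yap1 shRNA, against 229 ± 3.08 CPM in GFP (SD, n = 3 each). Its log2 value of -0.09 ± 0.06 in Yap1 WT was not called and turned to 0.05 with library size alone and to 0.08 on the TPM scale, while in Yap1 shRNA it fell by 0.95 ± 0.06. Aldh9a1 was at 155 ± 4.74 CPM in Yap1 WT and 104 ± 5.42 CPM in Yap1 shRNA, against 149 ± 5.68 CPM in GFP, with a log2 value of 0.05 ± 0.05 in Yap1 WT that was not called but was called at 0.19 with library size alone and at 0.21 on the TPM scale. Between the Yap1 groups, Aldh2 (0.86 ± 0.06) and Aldh9a1 (0.57 ± 0.06) were both higher in Yap1 WT. Aldh7a1 fell in both (-0.52 ± 0.06 in Yap1 WT and -1.13 ± 0.07 in Yap1 shRNA).

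Aox1, an aldehyde oxidase, had 12.5, 10.6 and 11.4 CPM in Yap1 WT and 3.20, 3.88 and 3.87 CPM in Yap1 shRNA libraries, against 12.0, 10.8 and 11.3 CPM in GFP libraries. The Yap1 WT and GFP libraries overlapped (0.02 ± 0.11, not called, -0.07 without Yap1 WT replicate 1, -0.02 without GFP replicate 2 and -0.03 with no count filter), and Yap1 shRNA lay wholly below both. Its log2 value of 1.65 ± 0.15 in Yap1 WT against Yap1 shRNA was the highest of any tested member (edgeR adjusted p = 6.72e-07). Aldh3a2, the microsomal fatty aldehyde dehydrogenase, had 80.7, 78.9 and 78.0 CPM in Yap1 WT and 93.0, 105 and 107 CPM in Yap1 shRNA libraries, against 89.7, 84.3 and 89.8 CPM in GFP libraries. It rose in Yap1 shRNA by 0.21 ± 0.06 on the log2 scale (edgeR adjusted p = 0.00706), a call lost with no count filter (0.13). Its value of -0.15 ± 0.06 in Yap1 WT (edgeR adjusted p = 0.0399) was not called without GFP replicate 1 (-0.14), GFP replicate 3 (-0.14), Yap1 WT replicate 2 (-0.15) or Yap1 WT replicate 3 (-0.14), and was 0.01 on the TPM scale. This call was also lost with RLE scaling (-0.13), library size alone (-0.02), a stricter count filter (-0.14), thinning to equal depth (-0.10) and DESeq2 (-0.13).

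The 10 members below the read filter included RGD1308564, LOC100911186, Acaa1b, Oxct2b, Abat, Aldh1b1, Aox2, Aox3 and Aox4. Aldh1b1, a mitochondrial aldehyde dehydrogenase, held 10 reads in Yap1 WT and 2 in Yap1 shRNA, against 44 in GFP, and Aox2 held 15 in Yap1 WT and 17 in Yap1 shRNA, against 38 in GFP. Abat, the transaminase of GABA breakdown, held 13 in Yap1 WT and 9 in Yap1 shRNA, against 7 in GFP, and RGD1308564, Acaa1b, Oxct2b, Aox3 and Aox4 each held at most 3 reads per group. Differences at this depth were not tested here.

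The genes that supply the pathway's cofactors, those that take up its electrons and Echdc1 were described beside it. Of these 16 genes, together called cofactor partners, 1 rose and 10 fell in Yap1 WT against GFP (median -0.42), and 1 rose and 13 fell in Yap1 shRNA against GFP (median -0.87). Electron-transfer flavoprotein, which takes electrons from the acyl-CoA dehydrogenases, fell unevenly: Etfb by 1.31 ± 0.08 in Yap1 WT and 1.79 ± 0.08 in Yap1 shRNA, its oxidoreductase Etfdh by 1.28 ± 0.09 in Yap1 WT and 1.90 ± 0.10 in Yap1 shRNA, and Etfa by 0.50 ± 0.05 in Yap1 WT and 0.68 ± 0.06 in Yap1 shRNA. Of the cobalamin genes, Mmab fell by 1.11 ± 0.10 in Yap1 WT and 1.29 ± 0.11 in Yap1 shRNA, Mmachc by 0.78 ± 0.12 in Yap1 WT and 1.45 ± 0.15 in Yap1 shRNA, Mmaa by 0.82 ± 0.15 in Yap1 WT and 1.31 ± 0.18 in Yap1 shRNA and Mmadhc by 0.36 ± 0.07 in Yap1 WT and 0.41 ± 0.08 in Yap1 shRNA, while the lysosomal cobalamin exporter Lmbrd1 rose by 0.42 ± 0.07 in Yap1 WT and 0.75 ± 0.08 in Yap1 shRNA. The cobalamin carrier Tcn2 fell in Yap1 shRNA (-0.60 ± 0.07) and was not called in Yap1 WT (-0.14 ± 0.06), and its receptor Cd320 did likewise (-0.86 ± 0.13 in Yap1 shRNA and -0.19 ± 0.12 in Yap1 WT). Lipoyl synthase Lias, needed for Dbt, fell by 0.58 ± 0.12 in Yap1 WT and 1.05 ± 0.14 in Yap1 shRNA, the lipoyl transferase Lipt1 fell in Yap1 shRNA (-0.88 ± 0.31) and had 0.11 ± 0.24 in Yap1 WT, not called, and Lipt2 was not called in either. For biotin, Btd fell in both (-0.38 ± 0.11 in Yap1 WT and -1.07 ± 0.13 in Yap1 shRNA), and the ligase Hlcs fell in Yap1 shRNA (-0.75 ± 0.12) and had -0.19 ± 0.10 in Yap1 WT, not called. Echdc1, an ethylmalonyl-CoA decarboxylase, fell in Yap1 WT (-0.28 ± 0.09) and had -0.02 ± 0.09 in Yap1 shRNA, not called.

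In Yap1 WT against Yap1 shRNA, Mmut (1.04 ± 0.13), Echs1 (1.00 ± 0.11) and Mccc2 (0.90 ± 0.13) followed Aox1 as the highest called members with at least 5 CPM, and each had no overlap between the 2 groups. Bcat1 (-0.93 ± 0.05), Auh, Aldh3a2 (-0.36 ± 0.06) and Aacs were the lowest. All subunits of the dehydrogenase complex, all valine enzymes and all isoleucine enzymes were higher in Yap1 WT. Pcca (0.10 ± 0.09), Mcee (0.17 ± 0.24), Acat2 (0.28 ± 0.12), Acsf3 (0.39 ± 0.16), Il4i1 (0.33 ± 0.26), Ehhadh (0.74 ± 0.35) and Hmgcll1 (0.27 ± 0.51) were among those not called. Leaving out a library gave calls for Ehhadh (0.93 without Yap1 WT replicate 2), Acat2 (0.42 without Yap1 WT replicate 2 and 0.36 without Yap1 shRNA replicate 2) and Acsf3 (0.51 without Yap1 WT replicate 3 and 0.56 without Yap1 shRNA replicate 2). Library size alone gave calls for Ehhadh (0.85), Pcca (0.21), Acat2 (0.39) and Acsf3 (0.50). Acat2 was also called with no count filter (0.31) and in DESeq2 (0.27), and Acsf3 with no count filter (0.42) and a stricter one (0.39). The call of Acad8 was lost without Yap1 WT replicate 2 (0.35), Yap1 shRNA replicate 1 (0.40) or Yap1 shRNA replicate 2 (0.45), and that of Hadh without Yap1 WT replicate 1 (0.26) or 3 (0.22) or Yap1 shRNA replicate 1 (0.25) or 2 (0.24). Thinning to equal depth also lost the call of Acad8 (0.34), and DESeq2 (0.27) and the TPM scale (0.21) that of Hadh. With all libraries thinned to 6103220 reads 25 members were higher and 4 lower, against 26 and 5 at full depth.

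Other mitochondrial gene lists were set beside the members. All 19 citric acid cycle genes fell in Yap1 WT against GFP (median -0.90) and 18 fell in Yap1 shRNA against GFP (median -1.26). Of 11 genes of the pyruvate dehydrogenase complex and its kinases and phosphatases, 7 fell and 4 were not called in Yap1 WT (median -0.53), and 8 fell and 1 rose in Yap1 shRNA (median -0.71). The 17 tested genes of general mitochondrial content divided into 7 higher and 8 lower in Yap1 WT (median 0.07), and into 8 higher and 8 lower in Yap1 shRNA (median 0.04). These medians cover genes that moved apart, from -0.98 to 0.59 in Yap1 WT and from -1.48 to 1.33 in Yap1 shRNA. Of 2 chosen after their values were seen, Slc25a3 had means of 640 CPM in Yap1 WT, 510 in Yap1 shRNA and 1267 in GFP. Those of Hspa9 were 770 CPM in Yap1 WT, 1454 in Yap1 shRNA and 579 in GFP. All 5 genes set aside from the pathway term fell in Yap1 WT (Acadm by 1.47 ± 0.07, Acaa2 by 1.13 ± 0.08, Hmgcs1 by 1.11 ± 0.09, Hadha by 0.49 ± 0.05 and Hadhb by 0.18 ± 0.06). In Yap1 shRNA 4 of them fell and Hadhb rose by 0.38 ± 0.06. Of 24 tested genes of leucine sensing and mTORC1, the kinase complex that leucine activates, 5 rose and 8 fell in Yap1 WT (median -0.03), and 7 rose and 9 fell in Yap1 shRNA (median 0.02). Within that list Sesn2, a leucine-binding inhibitor of mTORC1 singled out after its values were seen, had 138, 181 and 144 CPM in Yap1 WT and 717, 665 and 621 CPM in Yap1 shRNA libraries, against 58.7, 59.3 and 57.4 CPM in GFP libraries. It rose 2.64-fold in Yap1 WT and 11.4-fold in Yap1 shRNA against GFP. Differences between lists were not tested.

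**Figure D4:**
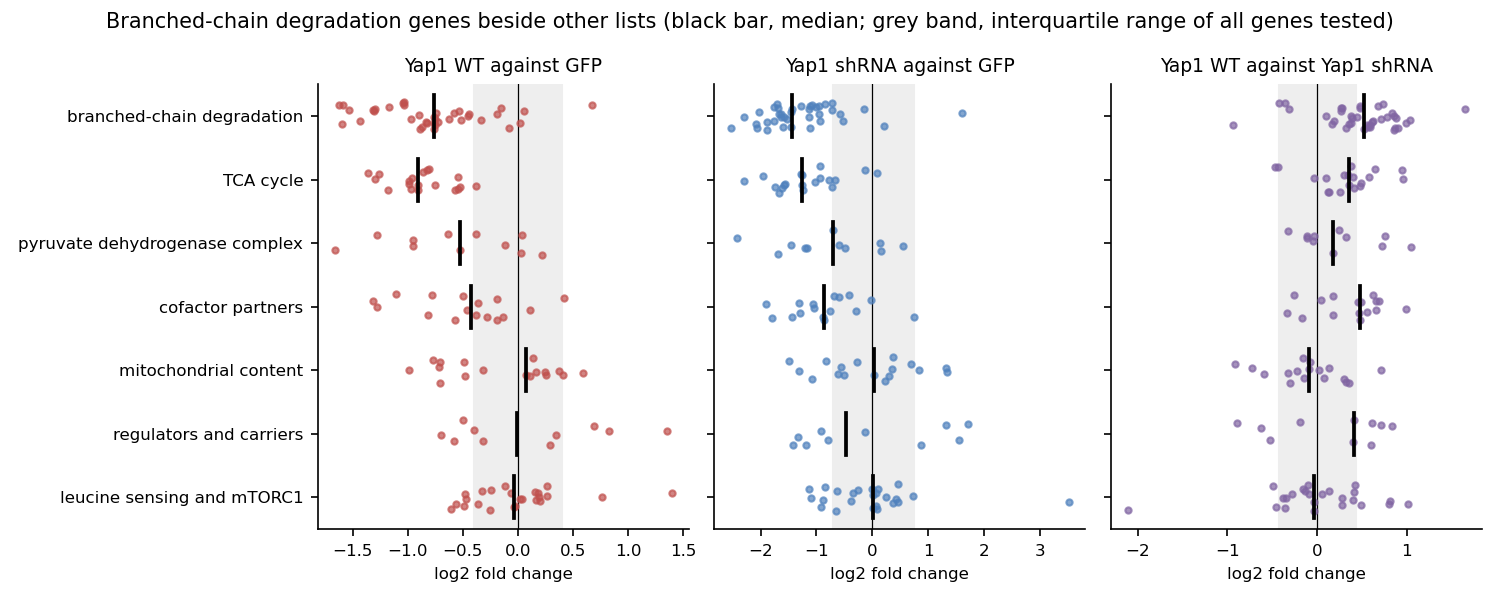
Log2 fold change (horizontal axis) of the tested branched-chain degradation genes and of 6 other lists (vertical axis) in the 3 comparisons, 1 point per gene, with black bars at list medians and a grey band over the middle 50% of all genes tested. Oxct2a is left off as a point. In both comparisons with GFP the medians of the branched-chain genes, the citric acid cycle, the pyruvate dehydrogenase complex and the cofactor partners lie left of the grey band. That of mitochondrial content lies near 0, with its genes spread to both sides.

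Markers listed for other cell types moved as well. The summed level of 10 fibroblast markers ran from 12612 to 17039 CPM in Yap1 WT and from 7881 to 8623 CPM in Yap1 shRNA, against 18949 to 20183 CPM in GFP libraries, with 6 lower and 3 higher in Yap1 WT and 9 lower and 1 higher in Yap1 shRNA. Most of this sum came from the collagens Col1a1 and Col3a1, with GFP means of 12538 and 5227 CPM. Dcn, picked after its values were seen, went the other way, at 101 CPM in Yap1 WT, 94.7 in Yap1 shRNA and 27.1 in GFP. For 9 smooth muscle and pericyte markers the sum ran from 5793 to 7453 CPM in Yap1 WT and from 4931 to 5515 CPM in Yap1 shRNA, against 11400 to 12084 CPM in GFP. Most of this sum came from Acta2, Tagln and Des, with GFP means of 5104, 2483.5 and 2387 CPM. Endothelial markers summed to 61.0 to 66.7 CPM in Yap1 WT and 71.8 to 76.1 CPM in Yap1 shRNA, against 46.1 to 47.2 CPM in GFP. Of 8 tested, 4 were higher and 1 lower in Yap1 WT, and 7 higher and 1 lower in Yap1 shRNA, each against GFP. Macrophage markers summed to 53.5 to 56.4 CPM in Yap1 WT and 27.8 to 36.3 CPM in Yap1 shRNA, against 39.4 to 44.4 CPM in GFP. C1qb, below the read filter and not tested, held 8 reads in Yap1 WT and 8 in GFP, against 0 in the shallower Yap1 shRNA libraries. Of the 7 macrophage markers tested, 2 were higher, 1 lower and 4 not called in Yap1 WT against GFP. In Yap1 shRNA against GFP, 1 was higher, 3 were lower and 3 were not called. The 8 epicardial markers summed to 78.5 to 88.9 CPM over the Yap1 groups, against 81.2 to 84.7 CPM in GFP, but moved in both directions, with 5 lower and 2 higher in Yap1 WT and 4 lower and 3 higher in Yap1 shRNA. Of 2 chosen after their values were seen, the mesothelial surface gene Upk3b had 3.91 ± 0.48 CPM in Yap1 WT and 0.16, 0 and 0 CPM in Yap1 shRNA libraries, against 13.3 ± 0.56 CPM in GFP, while the transcription factor gene Tbx18 had 27.0 ± 0.82 CPM in Yap1 WT and 42.1 ± 2.93 CPM in Yap1 shRNA, against 16.8 ± 0.69 CPM in GFP (SD, n = 3 each). Markers listed for other cell types were thus present in all groups, and their part in the members' results was not tested. Whether cardiomyocytes expressed some of them too, such as Des, Acta2 and Tagln, cannot be told from bulk RNA.

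The authors' deposited table gives its own log2 fold changes for the same comparisons. Its sign matched that of the edgeR fit for all 39 tested members in each of the 3 comparisons, and the largest difference was 0.218, for Oxct2a in Yap1 shRNA against GFP. For Bcat1 the authors' deposited table has 0.67 in Yap1 WT and 1.60 in Yap1 shRNA against GFP. The authors' DESeq2 q-values missed the call threshold used here for some members called in the edgeR fit. In Yap1 WT against GFP these were Il4i1 (0.0736), Dbt (0.109), Aldh3a2 (0.119) and Oxct2a (0.111). In Yap1 WT against Yap1 shRNA they were Acad8 (0.107) and Hadh (0.185). In Yap1 shRNA against GFP no member lost its call, and no tested member gained a call in any comparison.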

How the data were processed

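Messenger RNA of 9 rat cardiomyocyte cultures was enriched with oligo(dT) and sequenced on a BGISEQ-500, per the labels' protocols; the library's strand is not stated, so reads of overlapping genes cannot be told apart by strand. The submitters' processing notes name HISAT2, Bowtie2, RSEM 1.3.1, DESeq2 1.4.5 and build rn6, without their order. The values used are the authors' expected counts, unnormalized, and the deposited TPM, which have the same total in each library. The authors' deposited log2 fold changes, p-values and q-values come from DESeq2, per the file headers. A further 9 FPKM columns and a second deposited table were not used.

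Rounded expected counts of the 9 libraries entered 1 model by group in edgeR 4.0.16 under R 4.3.3, after filterByExpr (13708 genes kept) and TMM scaling. Quasi-likelihood F tests were two-sided, adjusted by Benjamini-Hochberg over all genes and called at 0.05. The standard error (SE) is the log2 fold change over the square root of F. Genes varied between replicates with a biological coefficient of variation of 7.18%. TPM was tested as log2(TPM + 1) in limma 3.58.1 as an alternative only. CPM follow TMM scaling. The fit was tested on simulated data. No pair of replicates agreed within sampling noise (chi-square per gene 2.24 to 11.2).

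A value in every library is printed for both transaminases, the dehydrogenase subunits, Bckdk, Ppm1k, Slc25a44 and Klf15, and in each comparison for the 4 largest called rises and 4 largest called falls among members with a mean of at least 5 CPM. Values of 2 members, counted in the totals, are not reported here. The members, lists and motifs were chosen with earlier results of these data known. Promoter coordinates are GRCr8 and were used only for sequence. Alternatives were other scalings, other count filters, a replicate block, the 6 compared libraries alone, thinning, DESeq2 1.42.0, the TPM scale and leaving out each library.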

Additional observations from a re-analysis of the deposited data

How the results depend on the processing

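The counts of genes called and of members called lower stayed within 1.5 times under all alternatives run, with 29 to 34 members lower in Yap1 WT against GFP and 32 to 37 in Yap1 shRNA against GFP. Members higher in Yap1 WT against GFP numbered 1 in place of 2 under a stricter count filter, after thinning or when just the 6 compared libraries were fitted, 3 with library size alone, and 1 to 2 leaving out each library; in Yap1 shRNA against GFP they numbered 2 in place of 3 with no count filter (without Aldh3a2), with the stricter count filter and with thinning. Among the members reported, 9 values changed sign. Those of changed settings were Aldh2 in Yap1 WT against GFP (0.0504 with library size alone, 0.0815 on the TPM scale), Aldh3a2 in Yap1 WT against GFP (0.0110 on the TPM scale), Auh in Yap1 shRNA against GFP (0.0468 on the TPM scale) and Aox1 in Yap1 WT against GFP (-0.0259 with no count filter). Those of left-out libraries lie within the ranges of -0.0674 to 0.0731 for Aox1 in Yap1 WT against GFP, -0.0772 to 0.982 for Hmgcll1 and -0.0251 to 0.339 for Mcee, both in Yap1 WT against Yap1 shRNA. Acadsb was not called in Yap1 WT against GFP on the TPM scale (-0.12). Over the values of the single members reported under all alternatives, 1975 kept direction and side of the threshold, and 29 lost and 20 gained a call. The causes were not tested. Library size alone and the TPM scale moved the median of all genes to 0.14 in Yap1 WT against GFP, the TPM scale moved it to 0.16 in Yap1 shRNA against GFP, and library size alone moved it to 0.15 in Yap1 WT against Yap1 shRNA. Replicate numbers did not pair the libraries (correlations of same-numbered deviations -0.03 to 0.09). The fit with a replicate block called 8812, 10752 and 8590 genes in Yap1 WT against GFP, Yap1 shRNA against GFP and Yap1 WT against Yap1 shRNA, against 8751, 10733 and 8562 without it. Under the block, Acsf3 (0.39) was called in the last of these, and no other member's call changed. Depth limits the 10 untested members and Oxct2a, and fold changes on the log2(TPM + 1) scale understate low genes.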
